A study of Mus musculus with 10 samples.

Results

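The extracellular matrix genes described here are 53 genes for matrix glycoproteins and proteoglycans, chosen by name, of which 52 were among the 21792 genes with values in kidney cortex. *Acan* was not analysed here. RNA sequencing was performed on the renal cortex of 10 wild-type male C57BL/6 mice that were aged 8 weeks at injection. In the aristolochic acid nephropathy (AAN) group, 6 mice had received a single intraperitoneal injection of aristolochic acid, a plant nephrotoxin, at 5 mg/kg body weight in PBS, and in the sham group 4 mice had received PBS. All kidneys were taken at day 28, so the comparison describes 1 late time point of a whole-body toxin model, in whole cortex and not in sorted cells. Values are FPKM, the fragments of a gene scaled to its length and to the depth of the library, which is a scale per length and allows levels of different genes to be set side by side.

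The matrix between kidney cells is built of collagens together with non-collagenous glycoproteins and proteoglycans. Glycoproteins such as fibronectin and the tenascins carry binding sites for cells and collagen, fibrillins and their partners form the microfibrils that scaffold elastin and hold latent TGF-β, and small leucine-rich proteoglycans bind to collagen fibrils. Proteoglycans carry sulphated sugar chains that hold growth factors, and hyaluronan is a sugar chain made at the cell surface without a protein core. In the kidney the tubular and glomerular basement membranes hold perlecan, agrin and nidogens, and the space between tubules widens with fibrillar matrix in fibrosis.

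Most of these genes were expressed at a higher level in AAN cortex. Of the 53, 49 averaged at least 0.1 FPKM across all 10 mice and were tested, and 36 of the 49 (73.5%) rose at least 2-fold with an adjusted p of at most 0.05 (limma over all 17129 genes tested, Benjamini-Hochberg). Over all genes tested, 35.8% rose and 3.43% fell by the same rule, and 0 of the 49 members fell. In 36 of the 49 the values of the 4 sham and 6 AAN mice did not overlap, against 43.6% of all genes tested. The median log2 fold change was 2.08 over the 49 members and 0.75 over all genes tested, and 39 of the 49 members lay above the latter. The median gene thus lay higher in AAN on this scale. The FPKM summed over all genes did not, at 439662 to 715204 in sham and 388126 to 561364 in AAN mice. Among the 49, 7 had a sham mean under 0.1 FPKM (*Postn*, *Fbn2*, *Mfap5*, *Ltbp2*, *Lum*, *Vcan* and *Has2*) and entered the test through their AAN values, so all 7 had to lie higher in AAN. Of the other 42, 29 rose (69.0%), with a median log2 fold change of 1.88.

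The count of 36 depended on how the mice were scaled to each other. After the median of ratios, which brought the median of all genes to 0.065, 29 members rose and 2 fell, while 3261 of all genes rose and 1801 fell. After quantile normalization, with the median of all genes at -0.13, 27 members rose and 1 fell, while 2232 of all genes rose and 2157 fell. With FPKM as deposited the counts over all genes were 6126 and 588. All 36 risen members kept a log2 fold change above 0 under both scalings, although 7 lost the call after the median of ratios (*Eln*, *Hspg2*, *Matn2*, *Nid1*, *Prelp*, *Sparcl1* and *Thbs3*) and 9 after quantile normalization (*Eln*, *Fbln2*, *Has2*, *Hspg2*, *Matn2*, *Nid1*, *Prelp*, *Thbs3* and *Vcan*). With a pseudocount of 1, which weighs low levels less, 8 lost the call (*Has2*, *Hspg2*, *Lum*, *Matn2*, *Postn*, *Prelp*, *Thbs3* and *Vcan*).

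The libraries held 15.8 to 17.5 M fragments in sham mice and 13.4 to 16.5 M in AAN mice. Among the sham mice, B634 had the lowest value in 53.9% of all genes tested and B607 the highest in 46.1%. Among the AAN mice, B614 had the lowest value in 34.1% and B630 in 31.5%. Without both B634 and B614, 35 members rose and 0 fell. The proximal tubule markers were present in sham cortex, with a summed level of 1599 to 3475 FPKM, and 4 of 5 fell in AAN. All 6 fibroblast and pericyte markers rose (summed level 10.7 to 13.8 FPKM in sham and 83.8 to 202 FPKM in AAN mice). The same held for 4 of 4 leukocyte and 5 of 5 macrophage markers (summed levels of 5.79 to 10.3 against 111 to 361 FPKM, and of 33.9 to 52.6 against 530 to 1827 FPKM). Of the endothelial markers 0 of 5 passed. *Pecam1* (log2 fold change 0.93, adjusted p = 0.000155) and *Cdh5* (0.77, adjusted p = 0.00342) lay higher in AAN without overlap, under the 2-fold limit. *Kdr*, *Emcn* and *Tie1* overlapped between the groups. Of the mesothelial markers 2 of 3 rose (summed level 0.243 to 0.485 FPKM in sham and 4.61 to 24.0 FPKM in AAN mice). Most of that AAN sum was *Krt19* (4.56 to 22.7 FPKM), while *Msln* overlapped between the groups and *Upk3b* was not called. The summed adipocyte markers stayed at or below 0.278 FPKM in every mouse. In bulk tissue more cells of a type and more RNA per cell cannot be told apart, and the part of these cell types in the results was not tested.

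**Figure D1:**
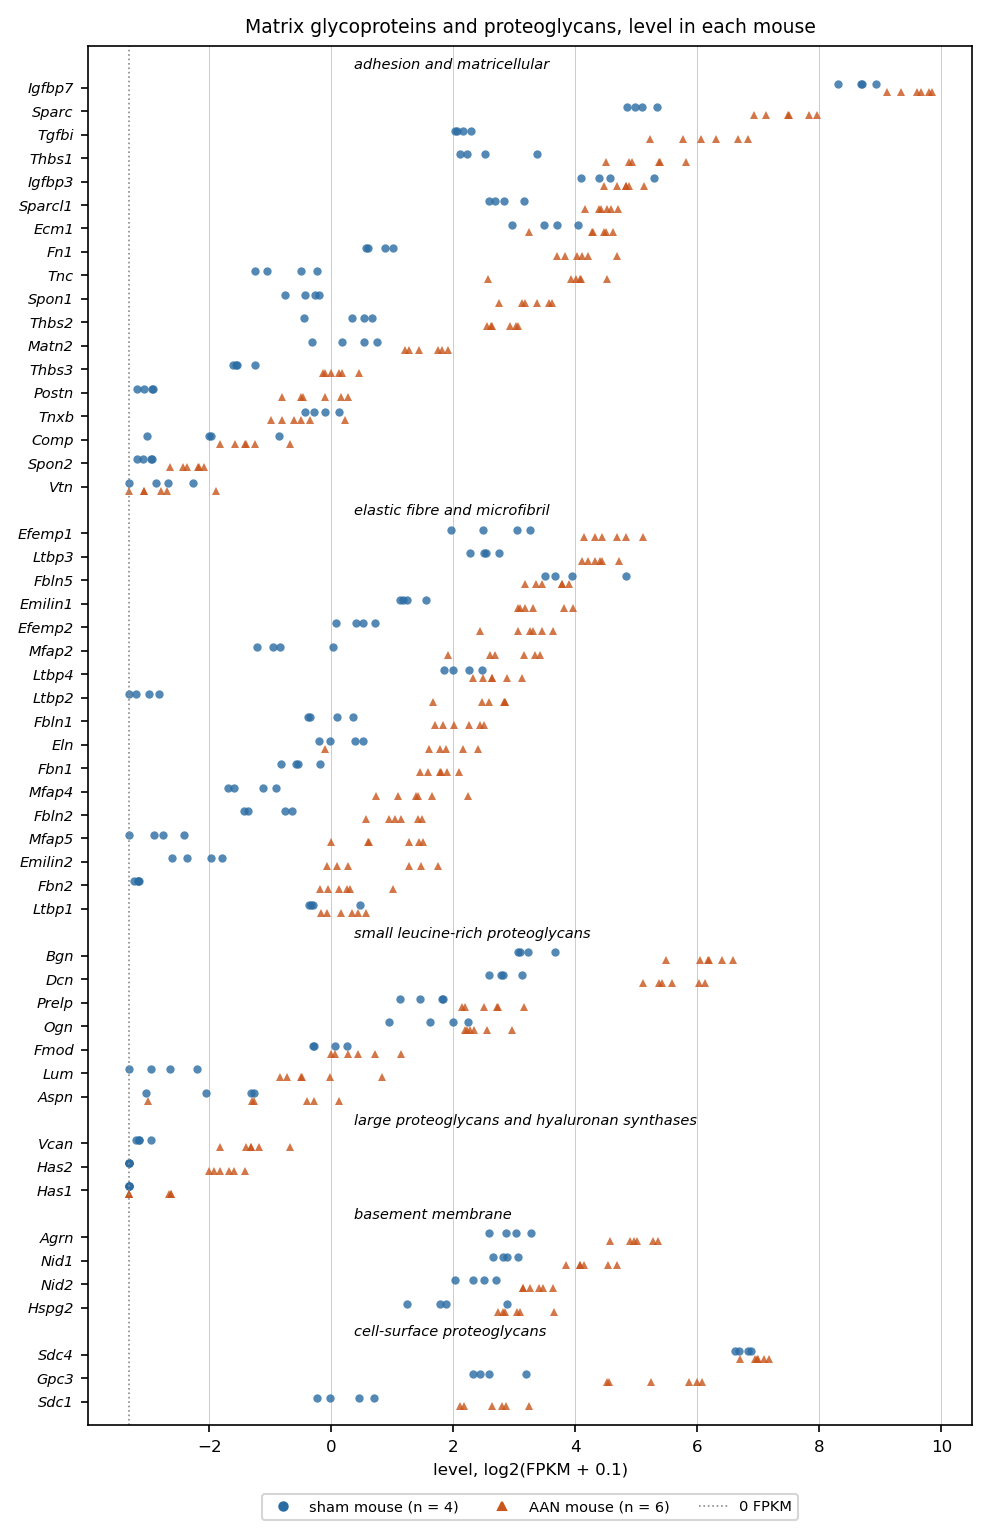
Level of the 52 members with values, log2(FPKM + 0.1), in each of the 4 sham mice (circles) and 6 AAN mice (triangles), ordered within each role by the AAN mean, with the dotted line at 0 FPKM. The levels span from *Igfbp7*, at 315 to 489 FPKM in sham mice, down to *Has1* and *Has2*, listed at 0 in every sham mouse, and for most genes the triangles lie to the right of all circles.

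Promoter sequences were available for 38 of the 53 genes (RefSeq, build GRCm38.p6). In the 250 bases before the start, the AP-1 motif TGANTCA occurred on either strand in 3 of the 38 (7.89%) and in 7.82% of 27025 genes, and the TATA box TATAAA in 7 of the 38 (18.4%) and in 14.3% of all genes. The Smad box GTCTAGAC occurred in 0 of the 38 and in 0.200% of all genes. Shown here are the 80 bases that end at the start of the 3 genes with an AP-1 or TATA match in this stretch on their own strand, 1 gene that rose and 2 that were not called, to place the letters beside the values. The capitals mark TATAAA and TGANTCA, and each sequence runs in the direction of its gene (*Postn* chr3:54361027-54361106, plus strand; *Ecm1* chr3:95739570-95739649, minus strand; *Tnxb* chr17:34670455-34670534, plus strand).
Postn: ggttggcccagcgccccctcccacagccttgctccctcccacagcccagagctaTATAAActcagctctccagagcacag
Ecm1: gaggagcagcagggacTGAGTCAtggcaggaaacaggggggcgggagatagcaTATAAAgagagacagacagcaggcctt
Tnxb: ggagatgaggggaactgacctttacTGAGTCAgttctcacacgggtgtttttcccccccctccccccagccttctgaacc
In *Postn*, whose product periostin binds collagen and integrins, the TATA box begins 26 bases before the start, and its level was 0.0101 to 0.0313 FPKM in sham and 0.474 to 1.11 FPKM in AAN mice (log2 fold change 2.79 ± 0.25, SE; adjusted p = 2.52e-06). All 4 sham values lay under the level of 3 fragments in a library (0.0328 to 0.0429 FPKM over the mice), and the log2 fold change was 0.79 with a pseudocount of 1. In *Ecm1* the TATA box begins 27 bases and the AP-1 motif 64 bases before the start, and the values of the groups overlapped. A match of letters is a description and not a binding site.

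Adhesive and matricellular glycoproteins had the highest summed level of the roles, at 426 to 584 FPKM in sham and 842 to 1422 FPKM in AAN mice. Of 18 named genes 16 were tested and 11 (68.8%) rose, against 35.8% of all genes tested. The median log2 fold change was 2.03. Among the 11, *Postn* entered the test through its AAN values, so it had to lie higher. Tenascin-C, the TGF-β-induced protein *Tgfbi*, spondin 1, fibronectin, periostin, SPARC and thrombospondins 1 to 3 were among those that rose, and tenascin-X was not. The large glycoprotein tenascin-C, which reappears in wounds, is encoded by *Tnc* (ENSMUSG00000028364, chr4:63959785-64047015, minus strand, GRCm38). *Tnc* was at 0.318, 0.383, 0.612 and 0.75 FPKM in sham mice and at 5.84 to 22.7 FPKM in AAN mice, with a median of 16.4. The lowest AAN value, in B614, was still above every sham value, and the log2 fold change was 4.62 ± 0.34 (adjusted p = 6.14e-07). *Tnxb*, for tenascin-X, a tenascin of loose connective tissue, was at 0.641, 0.724, 0.829 and 0.993 FPKM in sham mice and at 0.401 to 1.07 FPKM in AAN mice, with a median of 0.58. Its groups overlapped, and its log2 fold change was -0.33 ± 0.25 (adjusted p = 0.259), -1.0 after the median of ratios (adjusted p = 0.00643) and -1.53 after quantile normalization (adjusted p = 0.000531).

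*Tgfbi* encodes an integrin-binding matrix protein named for its induction by TGF-β (ENSMUSG00000035493, chr13:56609523-56639562, plus strand). It lay within a narrow band in sham mice, at 3.99, 4.08, 4.37 and 4.76 FPKM, and reached 37.4 to 113 FPKM in AAN mice, with a median of 72.5. Every AAN mouse was above every sham mouse, and the log2 fold change was 4.00 ± 0.28 (adjusted p = 4.02e-07). *Spon1*, for the secreted adhesion protein spondin 1, was at 0.494, 0.641, 0.731 and 0.766 FPKM in sham mice and at 6.6 to 12.2 FPKM in AAN mice, with a median of 9.6. The groups again did not overlap, and the log2 fold change was 3.68 ± 0.20 (adjusted p = 1.47e-07). Fibronectin, on which cells assemble provisional matrix, was at 1.39 to 1.91 FPKM in sham mice and rose to between 12.9 and 25.6 FPKM in AAN mice (*Fn1*, log2 fold change 3.33 ± 0.20, adjusted p = 1.84e-07).

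SPARC is a collagen-binding matricellular protein and *Sparcl1* its close relative. *Sparc* (ENSMUSG00000018593, chr11:55394500-55423183, minus strand) was at 28.7, 31.2, 33.9 and 40.4 FPKM in sham mice and at 121 to 248 FPKM in AAN mice, with a median of 179. *Sparcl1* was at 5.93, 6.32, 7.05 and 8.79 FPKM in sham mice and at 17.8 to 26.0 FPKM in AAN mice, with a median of 22.1. Both rose in all 6 AAN mice relative to every sham mouse. The log2 fold change was 2.41 ± 0.22 for *Sparc* (adjusted p = 2.39e-06) and 1.65 ± 0.16 for *Sparcl1* (adjusted p = 4.29e-06), and *Sparcl1* lost the 2-fold call after the median of ratios (0.89).

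*Igfbp7*, a secreted protein that binds insulin-like growth factors weakly and is found in vessel walls, had the highest level of the members in every mouse (ENSMUSG00000036256, chr5:77349240-77408041, minus strand). It was at 315, 412, 414 and 489 FPKM in sham mice and at 552 to 918 FPKM in AAN mice, with a median of 795. The groups did not overlap, but the log2 fold change of 0.91 ± 0.20 (adjusted p = 0.00197) was under the 2-fold limit, lay close to the median of all genes, and was 0.14 after the median of ratios. *Igfbp3*, for the main carrier of insulin-like growth factors in plasma, was at 16.9 to 39.2 FPKM in sham mice and at 21.9 to 34.9 FPKM in AAN mice, and its log2 fold change of 0.22 (adjusted p = 0.406) turned to -0.54 after the median of ratios.

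Of the other genes of this role, *Thbs1* and *Thbs2*, for thrombospondins that inhibit vessel growth, and *Thbs3* rose with log2 fold changes of 2.59, 2.53 and 1.57. *Matn2*, for the filament-forming matrilin-2, rose by 1.28 on the log2 scale. *Comp*, for the thrombospondin of cartilage, was at 0.0235 to 0.45 FPKM in sham and 0.183 to 0.526 FPKM in AAN mice. *Ecm1*, for a secreted glycoprotein that binds perlecan, was at 7.68 to 16.3 FPKM in sham and 9.30 to 24.6 FPKM in AAN mice, and 5 of 6 AAN mice exceeded every sham mouse (log2 fold change 0.68 ± 0.28, adjusted p = 0.0531; -0.076 after the median of ratios). The 2 genes under the filter stayed near the level of 3 fragments. *Spon2* was at 0.00961 to 0.0299 FPKM in sham and 0.0604 to 0.136 FPKM in AAN mice, where 3 fragments are 0.0838 to 0.11 FPKM, so that all 4 sham and 3 AAN values lay under that level. *Vtn*, for the plasma adhesion protein vitronectin, was listed at 0 in some mice of both groups and did not exceed 0.171 FPKM.

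Elastic fibre and microfibril genes rose in 14 of 17 (82.4%), against 35.8% of all genes tested, with a median log2 fold change of 2.19. Among them *Fbn2*, *Mfap5* and *Ltbp2* entered the test through their AAN values, so they had to lie higher. Microfibril components that were nearly silent in sham cortex reached measurable levels in AAN cortex, and fibulin-5 and the latent TGF-β binding proteins 1 and 4 did not pass. *Ltbp2* encodes a fibrillin-binding protein that, unlike the other latent TGF-β binding proteins, does not bind latent TGF-β (ENSMUSG00000002020, chr12:84783212-84876532, minus strand). It was at 0, 0.00892, 0.0267 and 0.0419 FPKM in sham mice and at 3.09 to 7.07 FPKM in AAN mice, with a median of 6.44. Its log2 fold change was 5.62 ± 0.25 (adjusted p = 8.29e-08), the largest of the 49 members at this pseudocount. With sham levels this near 0 its size followed the pseudocount, from 2.73 with a pseudocount of 1, below *Tgfbi*, *Tnc*, *Fn1* and *Bgn*, to 7.86 with 0.01.

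The other 3 latent TGF-β binding proteins, which tether the latent growth factor to matrix, differed among themselves. *Ltbp3* was at 4.74, 5.55, 5.70 and 6.59 FPKM in sham mice and at 17.2 to 26.3 FPKM in AAN mice, with a median of 20.5 (log2 fold change 1.85 ± 0.16, adjusted p = 1.59e-06). *Ltbp1* was at 0.672, 0.695, 0.710 and 1.29 FPKM in sham mice and at 0.787 to 1.38 FPKM in AAN mice, with a median of 1.09. Its log2 fold change was 0.34 ± 0.23 (adjusted p = 0.218) and turned to -0.35 after the median of ratios and -0.84 after quantile normalization (adjusted p = 0.00728). *Ltbp4* was at 3.49, 3.90, 4.68 and 5.46 FPKM in sham mice and at 4.87 to 8.60 FPKM in AAN mice, with a median of 6.11 (log2 fold change 0.54 ± 0.19, adjusted p = 0.0293; -0.21 after the median of ratios). In sham cortex the order by level was *Ltbp3* and *Ltbp4*, whose ranges overlapped, then *Ltbp1*, then *Ltbp2* near 0, whereas in AAN cortex *Ltbp3* stood alone at the top, the ranges of *Ltbp2* and *Ltbp4* overlapped, and *Ltbp1* was lowest.

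Fibrillins are the backbone of microfibrils, with fibrillin-1 the adult form and fibrillin-2 prominent in development. *Fbn1* was at 0.462, 0.571, 0.583 and 0.782 FPKM in sham mice and at 2.65 to 4.18 FPKM in AAN mice, with a median of 3.37 (log2 fold change 2.30 ± 0.19, adjusted p = 1.09e-06). *Fbn2* was at 0.00579, 0.0109, 0.0116 and 0.0120 FPKM in sham mice and at 0.781 to 1.91 FPKM in AAN mice, with a median of 1.04 (log2 fold change 3.43 ± 0.24, adjusted p = 4.77e-07). Neither gene overlapped between the groups. All 4 sham values of *Fbn2* lay under the level of 3 fragments (0.0155 to 0.0203 FPKM over the mice). Its log2 fold change was 1.06 with a pseudocount of 1 and 5.77 with 0.01. The microfibril-associated glycoproteins that bind fibrillin also rose. *Mfap2* was at 0.330, 0.414, 0.457 and 0.915 FPKM in sham mice and at 3.65 to 10.6 FPKM in AAN mice, with a median of 7.57 (log2 fold change 3.60 ± 0.32, adjusted p = 2.52e-06). *Mfap5* was at 0, 0.0342, 0.0484 and 0.0881 FPKM in sham mice and at 0.902 to 2.74 FPKM in AAN mice, with a median of 1.87 (log2 fold change 3.75 ± 0.32, adjusted p = 1.78e-06). Of its 4 sham values 3 lay under the level of 3 fragments (0.0688 to 0.0899 FPKM over the mice). Its log2 fold change was 1.44 with a pseudocount of 1 and 5.48 with 0.01.

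Fibulins link elastin to microfibrils and cells. *Efemp1*, for fibulin-3, had the highest AAN mean of this role, at 3.82, 5.50, 8.16 and 9.40 FPKM in sham mice and at 17.6 to 34.2 FPKM in AAN mice, with a median of 23.5 (log2 fold change 1.90 ± 0.27, adjusted p = 8.37e-05). *Fbln5*, for the fibulin needed to assemble elastic fibres, was at 11.2, 12.7, 15.3 and 28.3 FPKM in sham mice and at 8.89 to 14.8 FPKM in AAN mice, with a median of 12.2. The highest sham value belonged to B634, the groups overlapped, and the log2 fold change was -0.41 ± 0.25 (adjusted p = 0.177), or -0.13 without B634. After the median of ratios it was -1.17 (adjusted p = 0.00871), a call lower, and after quantile normalization -0.92 (adjusted p = 0.0247). Elastin itself (*Eln*) was at 0.767 to 1.34 FPKM in sham mice and at 0.828 to 5.20 FPKM in AAN mice, with 5 of 6 above every sham mouse (log2 fold change 1.45 ± 0.41, adjusted p = 0.00964), and without the AAN mouse A483 the log2 fold change was 1.79. The remaining members, *Emilin1*, *Emilin2*, *Efemp2*, *Fbln1*, *Fbln2* and *Mfap4*, rose with log2 fold changes from 2.12 (*Emilin1*) to 2.98 (*Emilin2*), without overlap between the groups.

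**Figure D2:**
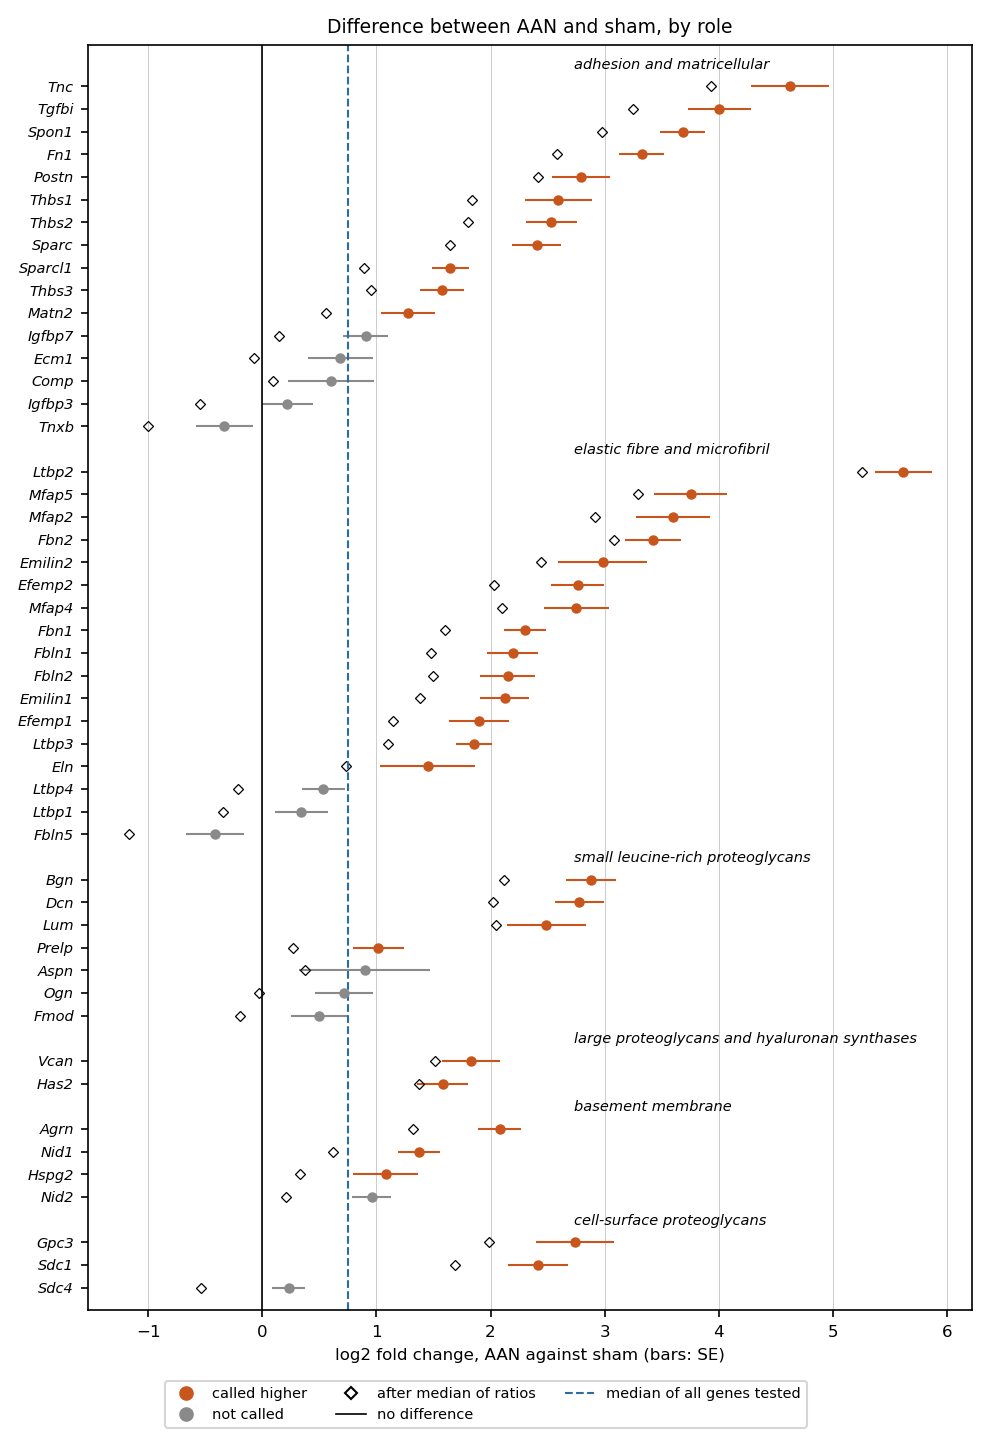
Log2 fold change of the 49 members tested, AAN (n = 6) against sham (n = 4), from FPKM as deposited (filled points, bars SE, coloured where called higher) and after the median of ratios (open diamonds), ordered within each role. The solid line marks no difference and the dashed line the median of all genes tested, 0.75, and 39 of the 49 filled points lie to the right of the dashed line, with *Ltbp2* at 5.62 farthest and *Fbln5* at -0.41 lowest.

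Small leucine-rich proteoglycans included genes that rose and genes that did not pass. Of 7, 4 (57.1%) rose, against 35.8% of all genes tested, with a median log2 fold change of 1.02. Among the 4, *Lum* entered the test through its AAN values, so it had to lie higher. Biglycan and decorin, close relatives that bind collagen fibrils and TGF-β, were the most abundant per length. *Bgn* (ENSMUSG00000031375, chrX:73483602-73495933, plus strand) was at 8.24, 8.39, 9.25 and 12.7 FPKM in sham mice and at 44.5 to 95.4 FPKM in AAN mice, with a median of 72.2 (log2 fold change 2.88 ± 0.22, adjusted p = 6.6e-07). *Dcn* (ENSMUSG00000019929, chr10:97479609-97518143, plus strand) was at 5.89, 6.81, 6.97 and 8.66 FPKM in sham mice and at 34.6 to 69.8 FPKM in AAN mice, with a median of 45.5 (log2 fold change 2.78 ± 0.21, adjusted p = 7.78e-07). Neither overlapped between groups. *Prelp*, for a proteoglycan that anchors basement membranes to connective tissue, was at 2.09, 2.63, 3.43 and 3.45 FPKM in sham mice and at 4.32 to 8.81 FPKM in AAN mice, with a median of 6.00. All AAN mice exceeded the sham mice, but the log2 fold change of 1.02 ± 0.23 (adjusted p = 0.00227) was at the 2-fold limit, and leaving out any 1 of H249 (0.88), B614 (0.90), B636 (0.98), B642 (0.99) or B666 (0.99) ended the call. *Lum*, for lumican, did not exceed 0.117 FPKM in sham mice and rose to between 0.458 and 1.68 FPKM in AAN mice, with a log2 fold change of 2.49 that was 0.74, and no longer called, with a pseudocount of 1. *Fmod*, *Ogn* and *Aspn*, for the collagen-binding fibromodulin, osteoglycin and asporin, overlapped between the groups. Their log2 fold changes were 0.50 (adjusted p = 0.0992), 0.72 (adjusted p = 0.0273) and 0.90 (adjusted p = 0.19), with *Fmod* at -0.19 and *Ogn* at -0.028 after the median of ratios and *Aspn* at -0.34 after quantile normalization.

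Large proteoglycans and hyaluronan synthases were at low levels throughout. *Has1* and *Has2* encode enzymes that make hyaluronan at the plasma membrane. *Has2* was listed at 0 in all 4 sham mice, which allows up to 0.0447 FPKM at 3 fragments a library, and was at 0.150 to 0.275 FPKM in AAN mice, with a median of 0.197. The AAN values stood for 10 to 19 fragments a mouse, and the AAN mean was 4.52-fold that limit, where limits and fragments cover counting error only. The limma fit gave a log2 fold change of 1.58 ± 0.22 (adjusted p = 9.3e-05). *Has2* entered that fit through its AAN values, so it had to lie higher. *Has1* was listed at 0 in all 4 sham and 3 AAN mice and at 0.0581 to 0.0617 FPKM in the other 3. *Vcan*, for versican, the large proteoglycan that binds hyaluronan, was at 0.00857 to 0.0284 FPKM in sham mice and rose to between 0.181 and 0.524 FPKM in AAN mice (log2 fold change 1.83 ± 0.25, adjusted p = 7.16e-05). Like *Has2*, *Vcan* entered the fit through its AAN values, so it had to lie higher. Both *Vcan* and *Has2* lost the 2-fold call with a pseudocount of 1 and after quantile normalization. With *Has2* at its limit in place of the fitted value, the median log2 fold change of the 49 members was 2.12.

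Of the basement membrane genes 3 of 4 (75%) rose, against 35.8% of all genes tested, with a median log2 fold change of 1.23. Agrin, a heparan sulphate proteoglycan, had the highest level in AAN: *Agrn* (ENSMUSG00000041936, chr4:156165290-156197488, minus strand) was at 5.89, 7.18, 8.01 and 9.54 FPKM in sham mice and at 23.6 to 40.9 FPKM in AAN mice, with a median of 31.6 (log2 fold change 2.08 ± 0.19, adjusted p = 2.77e-06). *Nid1*, for nidogen-1, which bridges laminin and collagen IV networks, was at 6.21, 6.91, 7.27 and 8.23 FPKM in sham mice and at 14.3 to 25.6 FPKM in AAN mice, with a median of 17.2 (log2 fold change 1.38 ± 0.18, adjusted p = 5.65e-05; 0.62 after the median of ratios). *Hspg2*, for perlecan, was at 2.27, 3.35, 3.59 and 7.24 FPKM in sham mice and at 6.55 to 12.4 FPKM in AAN mice, with a median of 7.60. The sham mouse B607 lay among the AAN mice, and the log2 fold change of 1.08 ± 0.29 (adjusted p = 0.00651) fell under the 2-fold limit without B634 (0.85) or B614 (0.96). *Nid2*, for nidogen-2, did not overlap (3.97 to 6.42 against 8.68 to 12.4 FPKM), with a log2 fold change of 0.96 ± 0.17 (adjusted p = 0.000518), and passed the limit without B607 (1.06).

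Cell-surface proteoglycans include the transmembrane syndecans and the lipid-anchored glypicans, which present growth factors to receptors. *Sdc1*, the syndecan of epithelia and plasma cells, was at 0.755, 0.882, 1.27 and 1.52 FPKM in sham mice and at 4.21 to 9.37 FPKM in AAN mice, with a median of 6.50 (log2 fold change 2.41 ± 0.26, adjusted p = 1.06e-05). *Gpc3*, a glypican of growing tissues (ENSMUSG00000055653, chrX:52272426-52613950, minus strand), was at 4.88, 5.32, 5.90 and 8.99 FPKM in sham mice and at 22.7 to 67.1 FPKM in AAN mice, with a median of 47.9 (log2 fold change 2.74 ± 0.34, adjusted p = 3.51e-05). Both rose without overlap. *Sdc4*, the widely expressed syndecan of focal adhesions, was the second most abundant member in sham cortex, at 97.7, 103, 113 and 118 FPKM, and was at 104 to 144 FPKM in AAN mice, with a median of 127. Its log2 fold change of 0.23 ± 0.14 (adjusted p = 0.18) turned to -0.53 after the median of ratios (adjusted p = 0.00327).

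The spans of 19 of the 52 genes overlap another listed gene, among them *Efemp2* with *Mus81*, *Ogn* and *Aspn* with *Cenpp*, *Has2* with its antisense RNA *Has2os*, *Igfbp7* with *Polr2b* and *Tnxb* with the pseudogene *Cyp21a2-ps*. Whether strand was used in counting is not given in the sources used here, so reads of such partners cannot be told apart where their exons meet.

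To ask whether related genes changed to the same extent, the log2 level of one gene minus that of its relative was taken within each mouse for 12 pairs, a measure that scaling between mice cannot move apart from the pseudocount. It was compared between the groups by an exact two-sided permutation test over 210 splits of the mice, adjusted over the 12 pairs, where the smallest p possible is 0.00476. *Ltbp2* minus *Ltbp4* moved from -5.22 ± 0.13 (SD, n = 4) in sham to -0.14 ± 0.70 (SD, n = 6) in AAN mice, a difference of 5.08 (adjusted exact p = 0.0143). *Ltbp2* lay near 0 in sham mice, with 3 of 4 values under the level of 3 fragments. The sham value, its SD and the size of the difference follow the pseudocount (2.27 at a pseudocount of 1 and 7.32 at 0.01). All 12 pairs were chosen with earlier results known, so the exact p of every pair is a description. *Ltbp2* also passed the filter only through its AAN values. *Ltbp1* minus *Ltbp3* moved the other way, from -2.65 ± 0.28 to -4.16 ± 0.32, a difference of -1.51 (adjusted exact p = 0.0143). In both pairs all 6 AAN mice lay on one side of all sham mice.

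The syndecans drew closer to each other, since *Sdc1* minus *Sdc4* went from -6.53 ± 0.32 to -4.34 ± 0.36, a difference of 2.18 (adjusted exact p = 0.0143), again without overlap. *Sparc* rose more than *Sparcl1*, with a difference of 0.76 and 5 of 6 AAN mice above all sham mice (adjusted exact p = 0.0381). That difference was between 0.63 and 0.89 with any 1 mouse left out, and no longer passed without B607 (0.72), B636 (0.76) or H249 (0.74). With a sham mouse left out there are fewer splits and the smallest p possible is larger, while these 3 differences stayed near 0.76. *Fbn1* minus *Fbn2* fell by 1.12 with a pseudocount of 0.1 (adjusted exact p = 0.0143) but rose by 0.38 with a pseudocount of 1, since *Fbn2* lay near 0 in sham mice. *Fbn2*, too, passed the filter only through its AAN values. *Has1* minus *Has2* gave no comparison, since both genes were listed at 0 in all sham mice and *Has1* was at most 0.0617 FPKM in AAN mice, where 3 fragments are 0.0484 to 0.0633 FPKM.

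The other 6 pairs did not pass. The differences were -0.86 for *Efemp1* minus *Efemp2*, -0.86 for *Emilin1* minus *Emilin2*, 1.02 for *Thbs1* minus *Thbs3*, -0.998 for *Hspg2* minus *Agrn* and 0.42 for *Nid1* minus *Nid2*, with adjusted exact p from 0.0508 to 0.0935. For biglycan and decorin, *Bgn* minus *Dcn* was 0.43 ± 0.12 in sham and 0.54 ± 0.29 in AAN mice, a difference of 0.11 ± 0.13 (SE; adjusted exact p = 0.524).

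**Figure D3:**
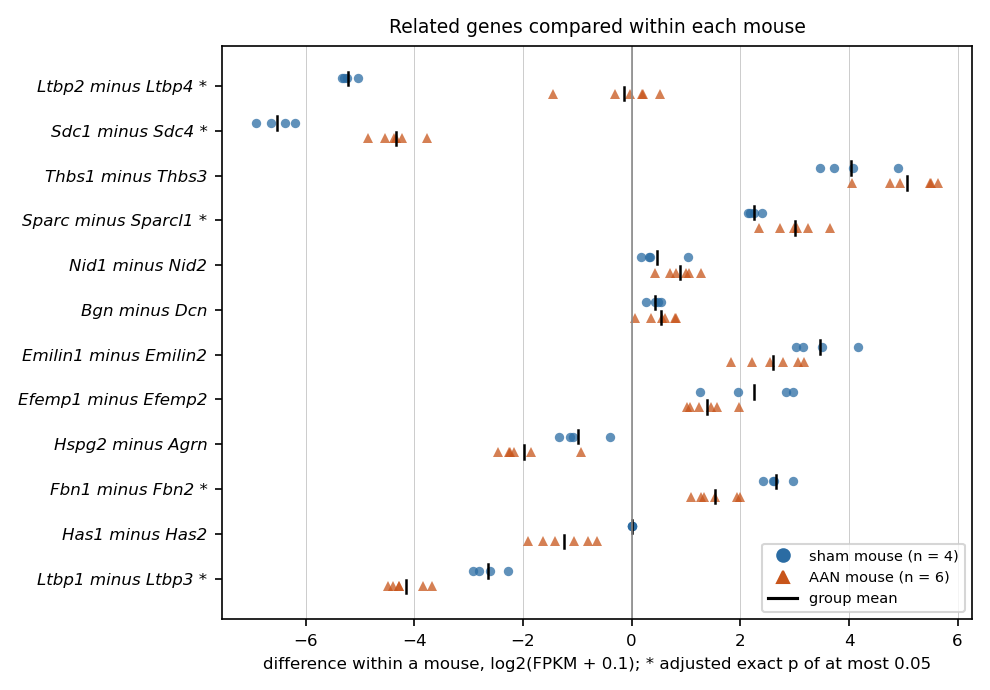
Difference between the log2(FPKM + 0.1) levels of 2 related genes within each mouse, for 12 pairs, in 4 sham mice (circles) and 6 AAN mice (triangles), with black ticks at the group means and a star where the adjusted exact p was at most 0.05, other than for *Has1* minus *Has2*, whose sham values are all 0 FPKM. *Ltbp2* minus *Ltbp4* shows a gap of 5.08, whose size follows the pseudocount, and *Bgn* minus *Dcn* the narrowest gap, 0.11.

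The make-up of the group as a whole also differed. Summed over the 52 members, the level was 630 to 795 FPKM in sham mice and 1285 to 2030 FPKM in AAN mice. *Igfbp7* alone was 57.3% ± 5.09 (SD) of that sum in sham and 45.2% ± 3.20 in AAN mice, with overlapping ranges (50.0% to 61.5% and 42.9% to 51.6%). The share of *Sdc4* was 15.3% ± 0.917 in sham and 7.70% ± 1.78 in AAN mice, without overlap. *Sparc* held 4.75% ± 0.574 in sham and 10.6% ± 1.33 in AAN mice, and *Tgfbi* 0.613% ± 0.0816 and 4.36% ± 1.32, both without overlap. Biglycan held 1.39% ± 0.417 and 4.25% ± 0.582. Shares within a mouse do not depend on scaling between mice, and no test was run on them.

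**Figure D4:**
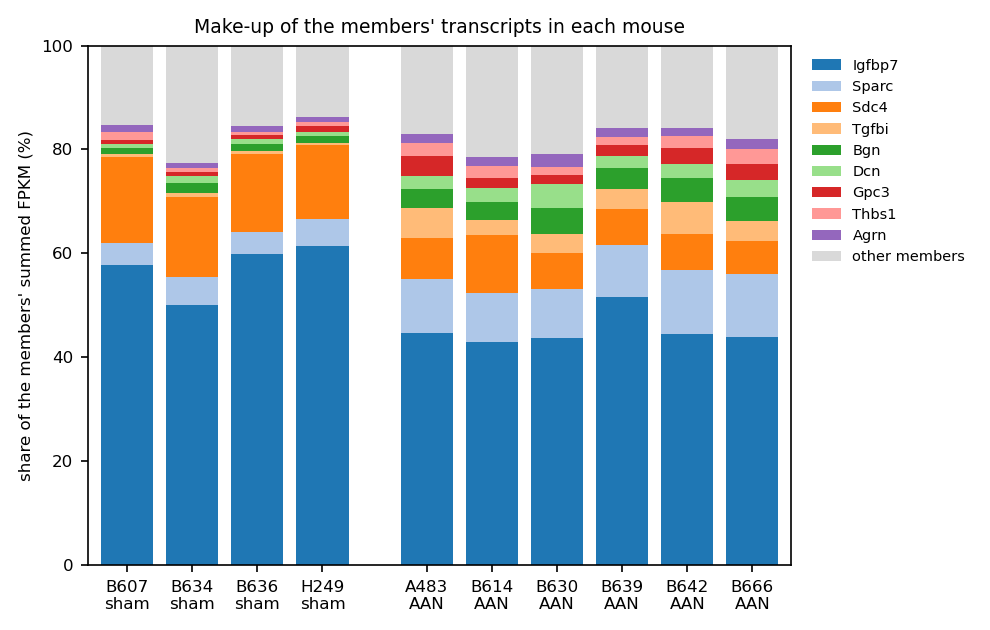
Share of the members' summed FPKM (%) held by the 9 genes with the highest mean share in AAN and by all other members together, in each of the 4 sham and 6 AAN mice. *Igfbp7* is the largest block in every mouse, the block of *Sdc4* is 14.3% to 16.4% in sham and 6.29% to 11.2% in AAN mice, and the blocks of *Sparc* and *Tgfbi* are taller in every AAN mouse than in any sham mouse.

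The AAN mice were not alike. B666 had the highest value of the 6 AAN mice in 21 of the 49 members, including *Tnc*, *Fn1*, *Sparc*, *Bgn*, *Agrn* and *Thbs1*, and in 16.1% of all genes tested, and it had the lowest value in 0 members and in 4.89% of all genes. B614 had the lowest value in 20 members, including *Tnc*, *Tgfbi*, *Ltbp2*, *Bgn*, *Dcn*, *Gpc3*, *Sparc* and *Igfbp7*, or 40.8% of the members against 34.1% of all genes tested, a share not far from that of all genes, and the highest in 6 (*Fbln5*, *Hspg2*, *Ltbp4*, *Mfap4*, *Prelp* and *Sdc4*), or 12.2% against 25.6%. B630 was highest in 15, or 30.6% against 12.2% of all genes, among them *Dcn*, *Lum*, *Ogn*, *Aspn* and *Eln*. The mouse with the most of one matrix gene was thus not the mouse with the most of every other.

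Other matrix genes, named from lists that hold none of the 53, were counted in the same way, against 35.8% that rose and a median log2 fold change of 0.75 over all genes tested. Of 32 other matrix glycoproteins tested, 19 (59.4%) rose and 1 fell (*Vwa1*, for a von Willebrand domain protein of basement membranes, 12.1 against 5.02 FPKM), with a median log2 fold change of 1.22. The 4 with the highest AAN levels differed among themselves: *Spp1*, for osteopontin, rose by 3.86 ± 0.30 (adjusted p = 7.72e-07) and the integrin ligand *Ccn1* by 2.13 ± 0.52 (adjusted p = 0.00414) on the log2 scale, whereas *Igfbp4* (106 against 59.2 FPKM) and *Igfbp5* (43.3 against 25.1 FPKM) were not called. Of 14 other proteoglycans 7 (50.0%) rose and 0 fell, with a median of 1.21. The mast cell and leukocyte proteoglycan serglycin (*Srgn*) rose by 2.20 ± 0.32 (adjusted p = 0.000121) and the syndecan *Sdc3* by 2.88 ± 0.17 (adjusted p = 1.79e-07), while *Gpc4* (53.8 against 47.1 FPKM) and *Sdc2* (23.9 against 20.6 FPKM) were not called. Within the syndecans, then, *Sdc1* and *Sdc3* rose and *Sdc2* and *Sdc4*, the more abundant ones in sham cortex, were not called. Some genes of both lists had a sham mean under 0.1 FPKM and entered the test through their AAN values, so they had to lie higher. Among the glycoproteins these were *Thbs4*, *Frem1*, *Ccn3*, *Ccn5* and *Cthrc1*, all called, and *Vwf*, not called. Among the proteoglycans they were *Podnl1*, *Spock2* and *Gpc2*, all called. The shares of 59.4% and 50.0% include them.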

How the data were processed

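Kidney cortex RNA of 10 mice (4 sham, 6 AAN, each a separate mouse by its tag) was sequenced as paired-end libraries. The authors aligned the cleaned reads with Hisat2 (2.0.4), build GRCm38.p4, and deposited FPKM per gene from Stringtie (1.3.0), with no further scaling between mice stated. The annotation release is not given in the sources used here, and 21665 of 21792 gene IDs matched GENCODE M21. Counts could not be recovered for genes with several transcripts (9.61% to 11.97% of low values came out whole, at a tolerance of 0.05 fragments), so no count model was used. Differences were fitted with limma 3.58.1 (R 4.3.3, trend and robust) on log2(FPKM + 0.1), which understates the change of low genes, and called where the adjusted p was at most 0.05 and the change was at least 2-fold. The 53 genes, the lists and the pairs were chosen with earlier results of these data known. Among genes whose mean reached 1 FPKM in sham or AAN mice, values in every mouse are given for the 3 of each role with the largest change and the 1 with the highest AAN mean, and beside these for every gene with a log2 fold change below 0 and every gene of a pair that passed. The lowest, median and highest value stand for the 6 AAN mice. Promoters are from RefSeq (GRCm38.p6). Alternatives were other pseudocounts, filters and scalings, limma without trend, each mouse left out, and mice with B tags alone. Leaving out both B614 and B634 was added after seeing the data. Genes named outside this rule were chosen after their values were seen.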

Additional observations from a re-analysis of the deposited data

Results flagged for a closer look

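In 4 cases 1 AAN mouse stood far from the other 5 by Dixon's ratio on the log2 scale, among 78 groups of mice examined, where chance alone marks about 1 group in 20. In B614, *Tnc* was at 5.84 FPKM (15.1 to 22.7 in the other AAN mice), *Ltbp2* at 3.09 FPKM (5.41 to 7.07) and *Ecm1* at 9.30 FPKM (19.2 to 24.6). In A483, *Eln* was at 0.828 FPKM (2.94 to 5.20 in the other AAN mice), within the sham range. The cause was not tested.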

How the results depend on the processing

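The count of members that rose was 27 to 40 of those tested over the alternatives and 34 to 37 with each mouse left out, and the count without overlap 33 to 39. Members that fell were 0, but 2 after the median of ratios (*Fbln5* and *Tnxb*) and 1 after quantile normalization (*Tnxb*). Over all genes, 3261 rose and 1801 fell after the median of ratios, 2232 and 2157 after quantile normalization; 2909 rose with a pseudocount of 1, 4025 where genes under 1 FPKM on average were left out, 8837 (332 fell) with the same FPKM total and 9482 (1027 fell) with no fold limit. Log2 fold changes above 0 turned below it after the median of ratios for *Ecm1* (-0.076), *Fmod* (-0.19), *Igfbp3* (-0.54), *Ltbp1* (-0.35), *Ltbp4* (-0.21), *Ogn* (-0.028) and *Sdc4* (-0.53), after quantile normalization for *Aspn* (-0.34), *Comp* (-0.70), *Fmod* (-0.65), *Igfbp3* (-0.14), *Ltbp1* (-0.84), *Ltbp4* (-0.23) and *Ogn* (-0.11), and with B tags alone for *Igfbp3* (-0.012); none of these members had been called. The pair differences with a pseudocount of 1 were 0.38 for *Fbn1*-*Fbn2* and 0.52 for *Emilin1*-*Emilin2*, both reversed, and 1.77 for *Thbs1*-*Thbs3* and -1.04 for *Hspg2*-*Agrn*, now past the threshold, as was -1.53 for *Emilin1*-*Emilin2* with 0.01. With B tags alone (3 sham, 5 AAN) no pair passed: *Fbn1*-*Fbn2* -1.16, *Ltbp1*-*Ltbp3* -1.57, *Ltbp2*-*Ltbp4* 5.05, *Sparc*-*Sparcl1* 0.74, *Has1*-*Has2* -1.28 and *Sdc1*-*Sdc4* 2.21, a design with fewer mice. There the smallest p possible is larger, and *Fbn1*-*Fbn2*, *Ltbp1*-*Ltbp3*, *Ltbp2*-*Ltbp4* and *Sdc1*-*Sdc4* had an adjusted exact p of 0.0536. With 1 mouse left out the differences were -1.20 to -0.63 for *Efemp1*-*Efemp2*, -1.004 to -0.62 for *Emilin1*-*Emilin2*, 0.83 to 1.31 for *Thbs1*-*Thbs3*, 0.32 to 0.61 for *Nid1*-*Nid2*, -1.21 to -0.80 for *Hspg2*-*Agrn* and 0.63 to 0.89 for *Sparc*-*Sparcl1*. The causes were not tested. No paired analysis was possible because no replicate number occurs in both groups. Levels under the limit of 3 fragments could not be told from 0.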

Other observations

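Enzymes that build the sugar chains of proteoglycans, and genes of hyaluronan turnover, were counted as a list of their own. Of 26 tested, 11 (42.3%) rose and 2 fell, against 35.8% and 3.43% of all genes tested. The median log2 fold change was 0.63, near the 0.75 of all genes tested. *Hmmr*, which rose, and *Chsy3* and *Has3*, not called, had sham means under 0.1 FPKM, so they had to lie higher in AAN. Among the 4 with the highest AAN levels, the heparan sulphate enzymes *Extl3* (5.73 ± 2.43 against 12.2 ± 2.003 FPKM, SD; log2 fold change 1.15, adjusted p = 0.00146) and *Ndst2* (5.24 ± 0.868 against 12.02 ± 1.42 FPKM; 1.19, adjusted p = 5.54e-05) rose, while *B3gat3* (31.0 against 37.0 FPKM) and *Ndst1* (8.07 against 9.87 FPKM) were not called. *Xylt1*, which starts the chains (2.71 against 1.11 FPKM, log2 fold change -1.22, adjusted p = 0.00904), and *Csgalnact1*, which starts chondroitin sulphate (1.90 against 0.469 FPKM, -1.79, adjusted p = 4.02e-05), fell. Their relatives went the other way. *Xylt2* (2.62 against 5.45 FPKM, log2 fold change 1.09, adjusted p = 0.000569) and *Csgalnact2* (1.21 against 3.27 FPKM, 1.37, adjusted p = 0.000147) rose.

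The following genes of this list were chosen after their values were seen. *Cd44*, for the hyaluronan receptor also carried by leukocytes, was at 0.0605 to 0.175 FPKM in sham and 5.54 to 13.0 FPKM in AAN mice (log2 fold change 5.48 ± 0.26, adjusted p = 1.26e-07). *Dse*, for the epimerase that makes dermatan sulphate, the chain carried by biglycan and decorin, was at 0.475 to 0.775 FPKM in sham and 5.26 to 9.04 FPKM in AAN mice (3.30 ± 0.20, adjusted p = 1.98e-07).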
